A study of Mus musculus with 6 samples.

Results

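The genes described here set how pyruvate enters mitochondria and what becomes of it there. They are 10 of the 54532 genes in the deposited count table, found by their symbols: the pyruvate dehydrogenase kinases Pdk1, Pdk2, Pdk3 and Pdk4, the pyruvate dehydrogenase phosphatases Pdp1 and Pdp2, the E1 alpha subunit Pdha1, the mitochondrial pyruvate carrier subunits Mpc1 and Mpc2, and pyruvate carboxylase, Pcx. All 10 passed the filter on low counts and were tested. RNA was sequenced from the visceral fat pad that lies along the epididymis (epididymal white adipose tissue, eWAT) of 6 C57BL/6 mice. In the cachexia group, 3 mice carried tumors grown from a mouse lung cancer line, Lewis lung carcinoma (LLC), under the skin, and 3 control mice formed the other group. The methods describe male mice of 6 to 10 weeks, count a tumor-bearing mouse with marked weight loss as cachectic, and give day 21 for the eWAT harvest. The labels name neither a vehicle injection nor the food intake of the controls, so tumor, weight loss and feeding cannot be told apart here. Each library came from whole tissue, in which fewer cells of a type and less RNA per cell cannot be told apart.

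Pyruvate made in the cytosol crosses the inner mitochondrial membrane through a carrier built from MPC1 and MPC2. Inside, the pyruvate dehydrogenase complex turns it into acetyl-CoA, while pyruvate carboxylase turns it into oxaloacetate. The complex is switched off when a kinase phosphorylates its E1 alpha subunit and switched on again when a phosphatase removes the phosphate. The kinase isoenzymes differ in tissue and control, and PDK4 is known as the isoenzyme induced by fasting, fatty acids and glucocorticoids. In white adipose tissue, acetyl-CoA made from pyruvate feeds fatty acid synthesis, and pyruvate carboxylase also supplies glyceroneogenesis, the route to the glycerol of triglycerides.

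The promoters of the kinase genes that rose are shown first, since both genes moved in the same direction. RefSeq windows of 300 bases (GRCm38.p6) were found for 9 of the 10 genes, all but Pdp1, and each runs from 250 bases before to 50 bases after a transcription start. The Pdk4 window lies on the minus strand at chr6:5496229-5496528. The Pdk2 window lies on the minus strand at chr11:95041322-95041621, and another Pdk2 start is listed nearby. Capitals mark matches to CCAAT (here read on the other strand, as ATTGG) and to CACGTG, the E-box.
Pdk4 promoter: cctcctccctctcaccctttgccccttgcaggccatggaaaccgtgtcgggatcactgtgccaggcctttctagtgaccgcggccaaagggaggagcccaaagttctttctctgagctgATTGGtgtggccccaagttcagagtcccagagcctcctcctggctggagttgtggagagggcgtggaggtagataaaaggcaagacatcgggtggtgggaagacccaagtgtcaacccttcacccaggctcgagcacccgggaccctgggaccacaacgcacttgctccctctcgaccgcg
Pdk2 promoter: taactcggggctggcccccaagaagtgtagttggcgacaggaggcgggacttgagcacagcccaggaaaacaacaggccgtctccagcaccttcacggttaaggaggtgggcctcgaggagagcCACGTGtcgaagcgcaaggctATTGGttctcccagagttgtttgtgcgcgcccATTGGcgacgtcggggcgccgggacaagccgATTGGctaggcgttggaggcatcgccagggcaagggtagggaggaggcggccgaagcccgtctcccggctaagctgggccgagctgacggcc
The search covered GTAAACA (a FoxO site), AGGTCA (a nuclear receptor half-site), TGTTCT (a glucocorticoid receptor half-site), the E-box CACGTG, its inner part ACGTG (found wherever the E-box is), the GC box GGGCGG, the CCAAT box and the TATA box TATAAA, on both strands. Only exact matches within the windows were counted, so sites further away or with a differing sequence would be missed. The Pdk4 window held 1 CCAAT match and none of the other motifs. The Pdk2 window held 3 CCAAT matches, 1 CACGTG match and 2 ACGTG matches, which are that E-box read on each strand. Among all 32851 windows, 37.4% held CCAAT, 7.15% CACGTG, 19.6% ACGTG, 3.65% GTAAACA, 16.3% AGGTCA, 19.0% TGTTCT, 35.7% GGGCGG and 13.6% TATAAA. The other Pdk2 window, at chr11:95040826-95041125, held none of the motifs. CCAAT also stood in a window of Pdk3, Mpc1 and Mpc2, whose counts fell, and of Pdp2 and Pcx. It thus did not set the genes that rose apart. GC content was 60.7% in the Pdk4 window and 64.7% in the Pdk2 window, against a median of 52.7%. The Pdk4 window had 12 CpG dinucleotides and the Pdk2 window 25, and 39.6% and 18.4% of all windows had at least as many.

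In cachectic eWAT, 2 of the 10 genes rose (Pdk2 and Pdk4) and 3 fell (Pdk3, Mpc1 and Mpc2). The other 5 did not pass the test (Pdk1, Pdp1, Pdp2, Pdha1 and Pcx). The Mpc1 call concerns counts assigned to that gene, which has a near-identical copy described below. The test was edgeR's quasi-likelihood test, with Benjamini-Hochberg adjustment over 16003 genes and an adjusted p of 0.05 as threshold. Over all genes tested, 9% (1440 genes) were called higher and 8.63% (1381 genes) lower. The values of the 2 groups did not overlap for 6 of the 10 genes, the 5 called genes and Pdp2, against 40.5% of all genes tested. The median log2 fold change was -0.24 over the 10 genes and 0 over all genes tested. Levels are CPM (the gene's share of a library's reads, scaled to the usual fixed total with TMM library factors), listed for mice 1, 2 and 3 of each group. Control 1 stood apart from the other control mice over all genes: its score on the second principal component, which held 16.3% of the variance, was 47.2 against -28.8 and -23.3. Without control 1, the same 2 of the 10 genes rose and the same 3 fell. The plot of levels in each mouse shows all 10 genes.

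**Figure D1:**
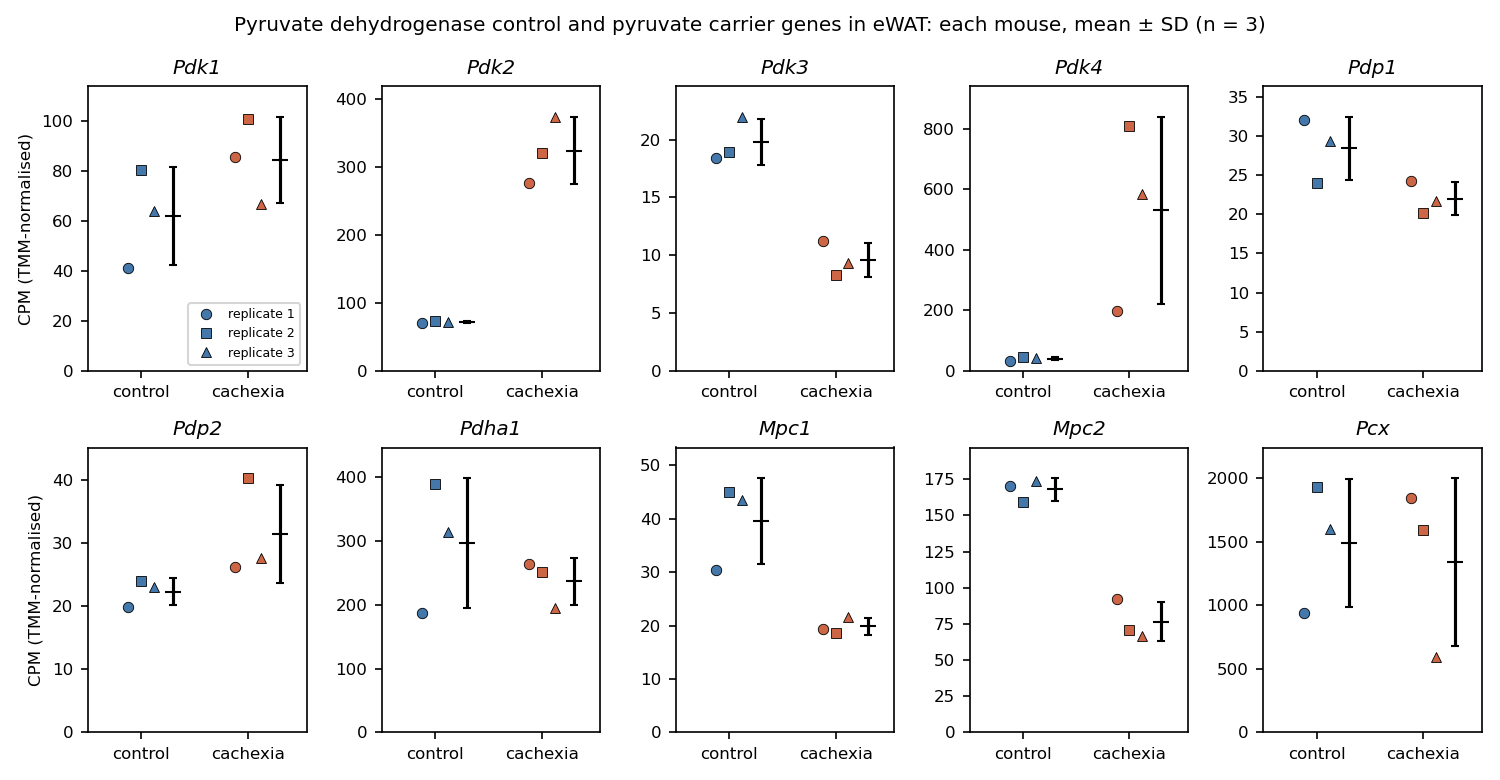
Levels of the 10 genes in each mouse, in CPM on a linear axis from 0, with a scale of its own for each gene. Symbols are single mice, by replicate number, and the black marks beside them are the group mean ± SD (n = 3); for Pdk2, Pdk4, Pdp2, Pdk3, Mpc1 and Mpc2 the groups do not overlap.

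The kinases did not move together. Pdk2, the broadly expressed isoenzyme (11:95026258-95041354, minus strand, GRCm38), measured 71, 73.9 and 71.9 CPM in the control mice and 277, 321 and 374 CPM in the cachectic mice. The control mice were tightly grouped, and every cachectic mouse was far above them. Pdk2 rose from 72.3 ± 1.51 to 324 ± 48.9 CPM (SD, n = 3), a log2 fold change of 2.16 (SE 0.16) with an edgeR adjusted p of 0.000878. The 95% interval of the fold ran from 3.48 to 5.77, and Pdk2 ranked 15 by p among the 16003 genes.

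Pdk4, the isoenzyme known for its response to fasting (6:5483351-5496309, minus strand), measured 34, 44.9 and 42.4 CPM in the control mice and 197, 810 and 585 CPM in the cachectic mice. Its groups were also far apart, but the cachectic mice differed among themselves, with cachexia 1 the lowest. Cachexia 2 had 4.11 times the level of cachexia 1. Pdk4 rose with a log2 fold change of 3.71 (SE 0.49, 95% interval 2.59 to 4.84) and an edgeR adjusted p of 0.00385, and the interval was wider than that of Pdk2 and lay above it. It ranked 47 by fold but 278 by p. The order of the cachectic mice was not that of Pdk2, which was highest in cachexia 3.

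Pdk3 (X:93764607-93832201, minus strand), a low-level isoenzyme here, measured 18.4, 18.9 and 22 CPM in control mice and 11.2, 8.29 and 9.31 CPM in cachectic mice. It fell from 19.8 ± 1.98 to 9.6 ± 1.47 CPM (SD, n = 3), a log2 fold change of -1.04 (SE 0.18) and an edgeR adjusted p of 0.00908. The call was lost without control 3, with an adjusted p of 0.0546 and a log2 fold change of -0.96. Pdk1 (2:71873224-71903858, plus strand), the isoenzyme known as a hypoxia target, measured 41.3, 80.6 and 64.1 CPM in control mice and 85.8, 101 and 66.8 CPM in cachectic mice. The Pdk1 groups overlapped, with a log2 fold change of 0.45 (95% interval -0.14 to 1.04) and an edgeR adjusted p of 0.255. Kinases of the same family thus stood on both sides of 0, with Pdk4 and Pdk2 above and Pdk3 below.

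**Figure D2:**
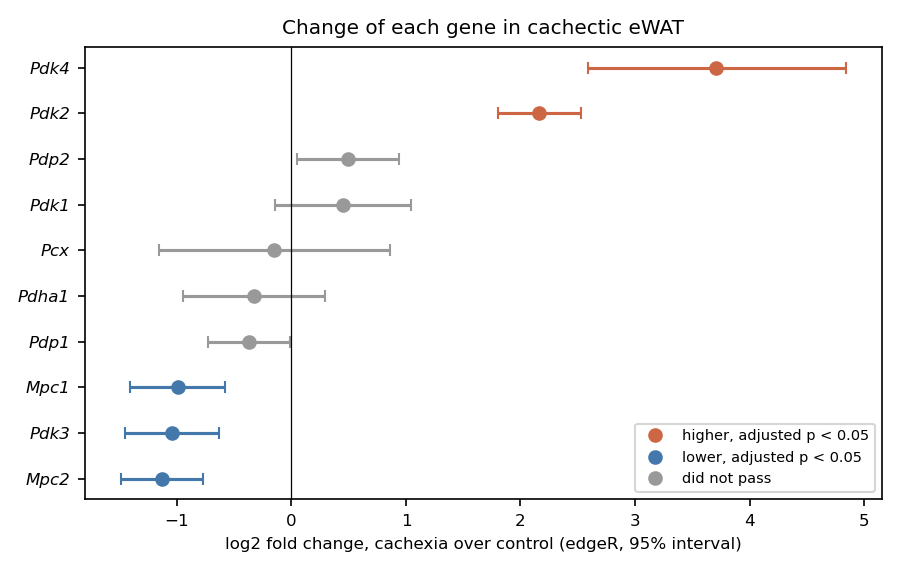
Log2 fold change of each gene, cachexia over control, from edgeR; points are estimates and bars 95% intervals (n = 3 per group). Pdk4 (3.71) and Pdk2 (2.16) lie to the right of 0, and Mpc1 (-0.99), Pdk3 (-1.04) and Mpc2 (-1.13) to the left; the grey genes did not pass the adjusted threshold.

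The phosphatase genes, whose products oppose the kinases, did not pass the test. Pdp1 (4:11958184-11966452, minus strand), the calcium-responsive catalytic subunit, measured 32, 24 and 29.3 CPM in control mice and 24.2, 20.1 and 21.7 CPM in cachectic mice. Its ranges touched, since cachexia 1 lay just above control 2. The log2 fold change was -0.37 (SE 0.16), with an unadjusted p of 0.0461 and an adjusted p of 0.139 by edgeR. Pdp2 (8:104591451-104599026, plus strand), the other catalytic subunit, measured 19.9, 24 and 23.1 CPM in control mice and 26.2, 40.3 and 27.6 CPM in cachectic mice. Every cachectic mouse was above every control mouse for Pdp2, although by little for cachexia 1. Its log2 fold change was 0.49 (95% interval 0.05 to 0.94), with an edgeR adjusted p of 0.116. Both intervals left out 0 before adjustment over all genes, on opposite sides.

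Pdha1 (X:160122209-160138413, minus strand) encodes the subunit that the kinases phosphorylate. It measured 188, 389 and 314 CPM in control mice and 264, 251 and 195 CPM in cachectic mice, so that the cachectic values lay within the control range. The log2 fold change was -0.33 (SE 0.27, 95% interval -0.95 to 0.29) and the edgeR adjusted p 0.429. Exons of Pdha1 overlap those of Map3k15 on the opposite strand. Map3k15 had at most 69 counts in any sample, and whether the counting used strand is not given in the sources used here.

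The counts assigned to both carrier genes fell, with a limit for Mpc1 that is given below. Mpc2 (1:165460637-165481214, plus strand) measured 170, 159 and 174 CPM in control mice and 92, 70.9 and 66.9 CPM in cachectic mice. The 2 groups were well separated. Mpc2 fell from 168 ± 7.77 to 76.6 ± 13.5 CPM (SD, n = 3), a log2 fold change of -1.13 (SE 0.16) and an edgeR adjusted p of 0.00455. Mpc1 (17:8282904-8297661, plus strand), the partner subunit, measured 30.4, 45 and 43.5 CPM in control mice and 19.3, 18.7 and 21.7 CPM in cachectic mice. The cachectic mice lay close together, below a control group in which mouse 1 was the lowest. Mpc1 had a log2 fold change of -0.99 (SE 0.18) and an edgeR adjusted p of 0.0107. Its call was lost without control 3, with an adjusted p of 0.0565 and a log2 fold change of -0.93.

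The level of Mpc1 is uncertain because a processed pseudogene, Mpc1-ps, holds near-identical sequence. Of the 50-base windows in Mpc1 transcripts (GENCODE M21), 11.0% were also found in the 330-base Mpc1-ps transcript. More reads were counted on the pseudogene than on the gene in every sample, with 69.4, 120 and 109 CPM in control mice and 40.6, 36.4 and 33.4 CPM in cachectic mice. From these counts alone, reads of the gene and of its copy cannot be told apart. Mpc1-ps fell too, with a log2 fold change of -1.43 (SE 0.21) and an edgeR adjusted p of 0.00567. With the counts of both summed, the level was 99.8, 165 and 153 CPM in control mice and 59.9, 55 and 55.1 CPM in cachectic mice. The sum fell with a log2 fold change of -1.29 (SE 0.20, 95% interval -1.75 to -0.84) and an edgeR adjusted p of 0.00613. Most of the summed reads lay on Mpc1-ps, so the sum does not fix the direction of Mpc1 itself. Mpc1 exons also overlap those of 4930506C21Rik on the opposite strand, which had 9 to 56 counts. Outside overlapping loci, no other gene shared more than 1.31% of the windows of any of the 10 genes.

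Pcx (19:4510472-4621752, plus strand), the most abundant of the 10 genes per length, did not pass the test. It measured 937, 1930 and 1600 CPM in control mice and 1840, 1590 and 590 CPM in cachectic mice. Cachexia 3 was the lowest of all 6 mice and control 1 the next lowest, and the other 4 mice lay in 1 range. The log2 fold change was -0.15 (SE 0.44) with an edgeR adjusted p of 0.841. The 95% interval ran from -1.16 to 0.86. The sign rested on single mice, with 0.21 without cachexia 3 and 0.08 without control 2.

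To compare genes with each other, CPM was divided by the gene length given in the count table, in kilobases. On this scale the order of mean levels in control mice was Pcx (321), Pdha1 (79.5), Pdk2 (22.9), Mpc2 (22.8), Mpc1 (19.0), Pdk4 (11.5), Pdk1 (7.97), Pdk3 (7.72), Pdp1 (6.31) and Pdp2 (3.92). Over the control mice, the ranges of neighbours overlapped from Pdk2 to Mpc1 and from Pdk4 to Pdk3, and the other neighbours were apart. In cachectic mice the order was Pcx (289), Pdk4 (151), Pdk2 (102), Pdha1 (63.4), Pdk1 (10.9), Mpc2 (10.4), Mpc1 (9.55), Pdp2 (5.52), Pdp1 (4.88) and Pdk3 (3.75). Over the cachectic mice, the ranges of neighbours overlapped from Pcx to Pdk2, from Pdk1 to Mpc1 and between Pdp2 and Pdp1. Pdk4 moved from the sixth place to the second, with an SD of 88.3 over the cachectic mice. The length matters most for Mpc2, whose gene model is 7344 bases long while its longest coding transcript has 1025. With the longest coding transcript in place of the gene length, Mpc2 measured 164 CPM per kilobase in control mice and 74.7 in cachectic mice, and stood second in control mice. Mpc1, with 961 instead of 2082 bases, measured 41.2 and 20.7 on that scale.

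The makeup of the kinase pool differed between the groups. The summed level of the 4 kinases was 44.6, 53.9 and 51.7 CPM per kilobase in control mice and 159, 348 and 297 in cachectic mice, a ratio of means of 5.36. Pdk4 made up 21.7, 23.7 and 23.4% of that sum in control mice and 35.3, 66.2 and 56.1% in cachectic mice. Pdk2 made up 50.3, 43.4 and 44.0% in control mice and 55.0, 29.1 and 39.8% in cachectic mice. In cachexia 1 Pdk2 remained the largest share, while in cachexia 2 and 3 Pdk4 was the largest. The order of the mean shares in cachectic mice depended on the length used, with 52.5% for Pdk4 and 41.3% for Pdk2 by gene length but 44.7% and 48.1% by the longest coding transcript. The share of Pdk1 went from a mean of 15.7% to 4.52% and that of Pdk3 from 15.5% to 1.63%, although the Pdk1 level itself was not lower. The groups did not overlap for the summed level or for the shares of Pdk4, Pdk1 and Pdk3, each with an exact two-sided permutation p of 0.1, the smallest that 3 mice against 3 can give. The Pdk2 share overlapped (exact permutation p = 0.7). Shares of 1 sum move together, so these tests are not independent.

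**Figure D3:**
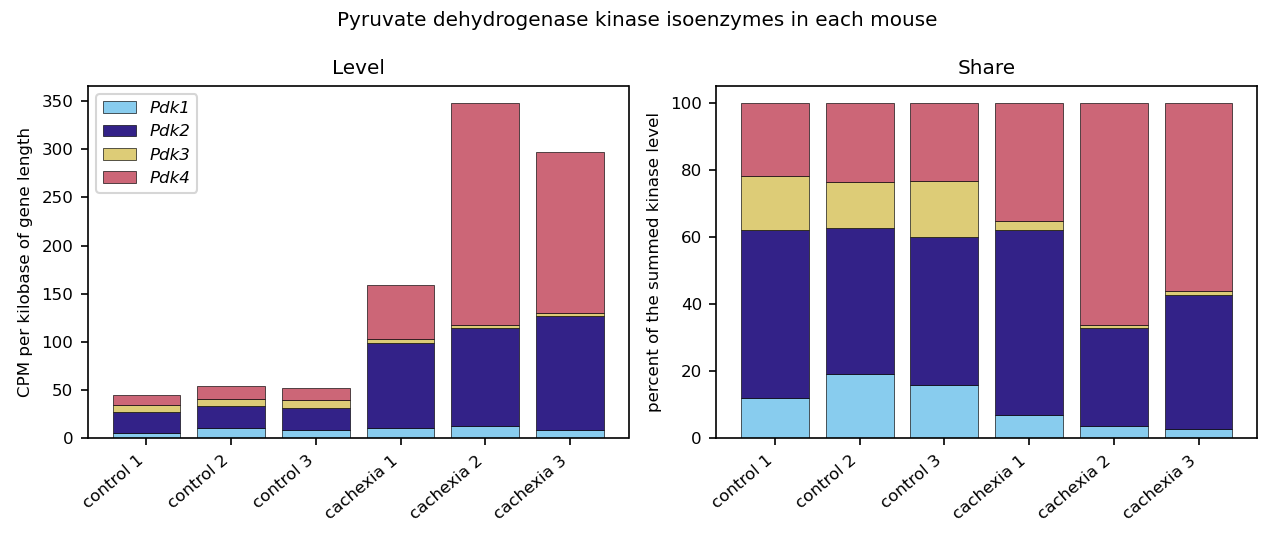
The 4 pyruvate dehydrogenase kinase isoenzymes in each mouse, as stacked CPM per kilobase of gene length (left) and as percent of their sum (right). The summed level lies between 44.6 and 53.9 in control mice and between 159 and 348 in cachectic mice, and the Pdk4 share between 21.7 and 23.7% and between 35.3 and 66.2%.

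The balance of kinase to phosphatase transcripts was read as the log2 ratio of the summed kinase level to the summed Pdp1 and Pdp2 level, per kilobase. It was 2.08, 2.5 and 2.29 in control mice and 3.99, 4.91 and 4.94 in cachectic mice. The groups were apart by 2.33 on the log2 scale, with an exact permutation p of 0.1. On the linear scale the mean ratio was 4.92 in control mice and 25.6 in cachectic mice. The summed phosphatase level was close in the 2 groups, at 10.2 ± 0.592 and 10.4 ± 1.01 CPM per kilobase (SD, n = 3), with an exact permutation p of 0.8. Relative to their substrate, the log2 ratio of summed kinases to Pdha1 was -0.61 ± 0.40 in control mice and 2.02 ± 0.74 in cachectic mice (SD, n = 3; exact permutation p = 0.1). For the carrier subunits the groups overlapped. By gene length, the log2 ratio of Mpc1 to Mpc2 was -0.67, 0 and -0.18 in control mice and -0.43, -0.11 and 0.19 in cachectic mice. The difference was 0.17, with an exact permutation p of 0.6. By the longest coding transcript, the mean log2 ratio was -2.01 in control mice and -1.84 in cachectic mice, again 0.17 apart. Which subunit transcript was more abundant thus depended on the length used, and Mpc1-ps leaves the Mpc1 level uncertain. These ratios are of transcripts, and neither protein nor phosphorylation was measured in these files.

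The wider pathway was read from 6 lists of 68 genes in all, of which 65 were tested. In these lists 11 genes rose and 6 fell by edgeR, against 9% higher and 8.63% lower over all genes, and the median log2 fold change was -0.01. Of the other subunits and cofactor enzymes of the complex, 8 were tested and 1 fell. That gene was Pdhb, the E1 beta subunit, with 220, 470 and 350 CPM in control mice and 162, 187 and 125 CPM in cachectic mice. Its log2 fold change was -1.13 (edgeR adjusted p = 0.0321), and the call held in the fit with all 6 mice and without control 1 but was lost without any other single mouse, with adjusted p between 0.0523 and 0.0994. Dlat, the E2 core enzyme, had a log2 fold change of 0.03, and Dld, the E3 enzyme, of -0.32, and neither passed. Pdpr, which restrains PDP1, had 0.17 with an interval from -0.87 to 1.22.

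The complex that breaks down branched-chain keto acids has its own kinase, Bckdk, and phosphatase, Ppm1k. Ppm1k measured 14.4, 21.9 and 14.1 CPM in control mice and 39.8, 44.8 and 46.7 CPM in cachectic mice. It rose with a log2 fold change of 1.38 (SE 0.20) and an edgeR adjusted p of 0.00504. Bckdk had a log2 fold change of -0.16 and did not pass. In this pair the phosphatase was the gene that rose, while in the pyruvate dehydrogenase set it was kinases.

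Of 14 genes of pyruvate supply and other fates of pyruvate, 2 rose and 2 fell. Pck1, the cytosolic phosphoenolpyruvate carboxykinase of glyceroneogenesis, measured 379, 953 and 558 CPM in control mice and 4140, 1630 and 3870 CPM in cachectic mice. Its log2 fold change was 2.35 (edgeR adjusted p = 0.0143), and without control 3 the adjusted p was 0.0713. Pck2, the mitochondrial form, rose from 32.6 ± 6.03 to 54.5 ± 6.59 CPM (SD, n = 3), a log2 fold change of 0.74 (edgeR adjusted p = 0.0228). The Pck2 call was lost without control 2 (0.0874), control 3 (0.101) or cachexia 2 (0.0597). Me1, the cytosolic malic enzyme that makes pyruvate and NADPH, measured 538, 1660 and 1000 CPM in control mice and 248, 242 and 174 CPM in cachectic mice. Me1 fell, with a log2 fold change of -2.27 (edgeR adjusted p = 0.00974). Slc16a7, the monocarboxylate transporter MCT2, fell with a log2 fold change of -1.22 (edgeR adjusted p = 0.0361), and its call was lost without any single mouse other than control 1 or cachexia 1, at up to 0.125. Ldha, the lactate dehydrogenase subunit that favours lactate, had -0.65 and an edgeR adjusted p of 0.107.

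Of 12 genes for the use of acetyl-CoA, citrate export and the shuttles, none rose and 3 fell. Acly, which splits exported citrate into acetyl-CoA for lipid synthesis, measured 491, 2370 and 1410 CPM in control mice and 222, 271 and 124 CPM in cachectic mice. Every cachectic mouse was below every control mouse, and control 1 was nearest to them. Acly had a log2 fold change of -2.79 (edgeR adjusted p = 0.0158). Acss2, which makes acetyl-CoA from acetate, had -1.93 (edgeR adjusted p = 0.0198), and Slc25a1, the citrate carrier, had -1.40 (edgeR adjusted p = 0.0299). The Acly call was lost without control 3 (0.0541) or cachexia 1 (0.0501), that of Acss2 without control 3, cachexia 1 or cachexia 3 (up to 0.0649), and that of Slc25a1 without control 2, control 3 or cachexia 2 (up to 0.0966). The citric acid cycle genes Cs, Idh3a and Ogdh had log2 fold changes from -0.57 to -0.01 and did not pass. Control 1 was the lowest of the control mice for Pdha1, Pdhb, Pcx, Me1, Acly, Acss2 and Slc25a1, genes picked out after their values were seen. This library also stood apart over all genes, as given above, and no cause was tested.

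Among 13 tested factors known to control Pdk4 transcription, 1 rose. Foxo3, a FoxO factor active under low insulin, measured 51.1, 54.1 and 48.6 CPM in control mice and 64.4, 94.2 and 100 CPM in cachectic mice, with a log2 fold change of 0.75 (edgeR adjusted p = 0.0267). The Foxo3 call was lost without any single mouse other than cachexia 1, with an adjusted p of up to 0.109. Klf15 had 0.60 (edgeR adjusted p = 0.0652) and Cebpb 0.68 (0.0656), each with every cachectic mouse above every control mouse. The glucocorticoid receptor gene Nr3c1 had -0.57 and Foxo1 -0.21, and neither passed. Pparg had -0.28 and Ppard -0.06, while Ppara had 0.88 with an interval from -1.01 to 2.77. Esrrg was too low to be tested.

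Of 16 tested genes known as targets of PPARs, FoxO factors or the glucocorticoid receptor, 7 rose and none fell, and the median log2 fold change was 1.14. This list was chosen with earlier results of these data known, and many of its genes answer to more than 1 of these factors. Ddit4, an inhibitor of mTORC1 induced by stress and glucocorticoids, measured 46.2, 26.2 and 22.6 CPM in control mice and 157, 289 and 309 CPM in cachectic mice, with a log2 fold change of 2.99 (edgeR adjusted p = 0.00306). Sgk1, a kinase induced by glucocorticoids, had 2.51 (edgeR adjusted p = 0.0014). Txnip, which restrains glucose uptake, had 1.91 (0.00398), and the clock gene Per1 had 1.66 (0.00192). These 4 genes passed whichever single mouse was left out. Angptl4, an inhibitor of lipoprotein lipase, had 1.23 (edgeR adjusted p = 0.0315) and Ucp3 1.05 (0.0421). The Angptl4 call held without cachexia 2 alone and that of Ucp3 without control 2 or cachexia 3 alone, with an adjusted p of up to 0.108 and 0.134 otherwise. Fkbp5, a glucocorticoid receptor target, had 1.60 with an edgeR adjusted p of 0.0805, and control 1 (243 CPM) lay above cachexia 1 (191 CPM). Cpt1a, the gatekeeper of mitochondrial fatty acid oxidation, had -0.18 and did not pass. Of the others that did not pass, Acot1 had 1.37, Tsc22d3 0.84, Klf9 0.79, Zbtb16 0.68, Slc25a20 0.52, Plin2 0.09 and Acadm -0.03. Cpt1b and Fabp3 were too low to be tested.

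**Figure D4:**
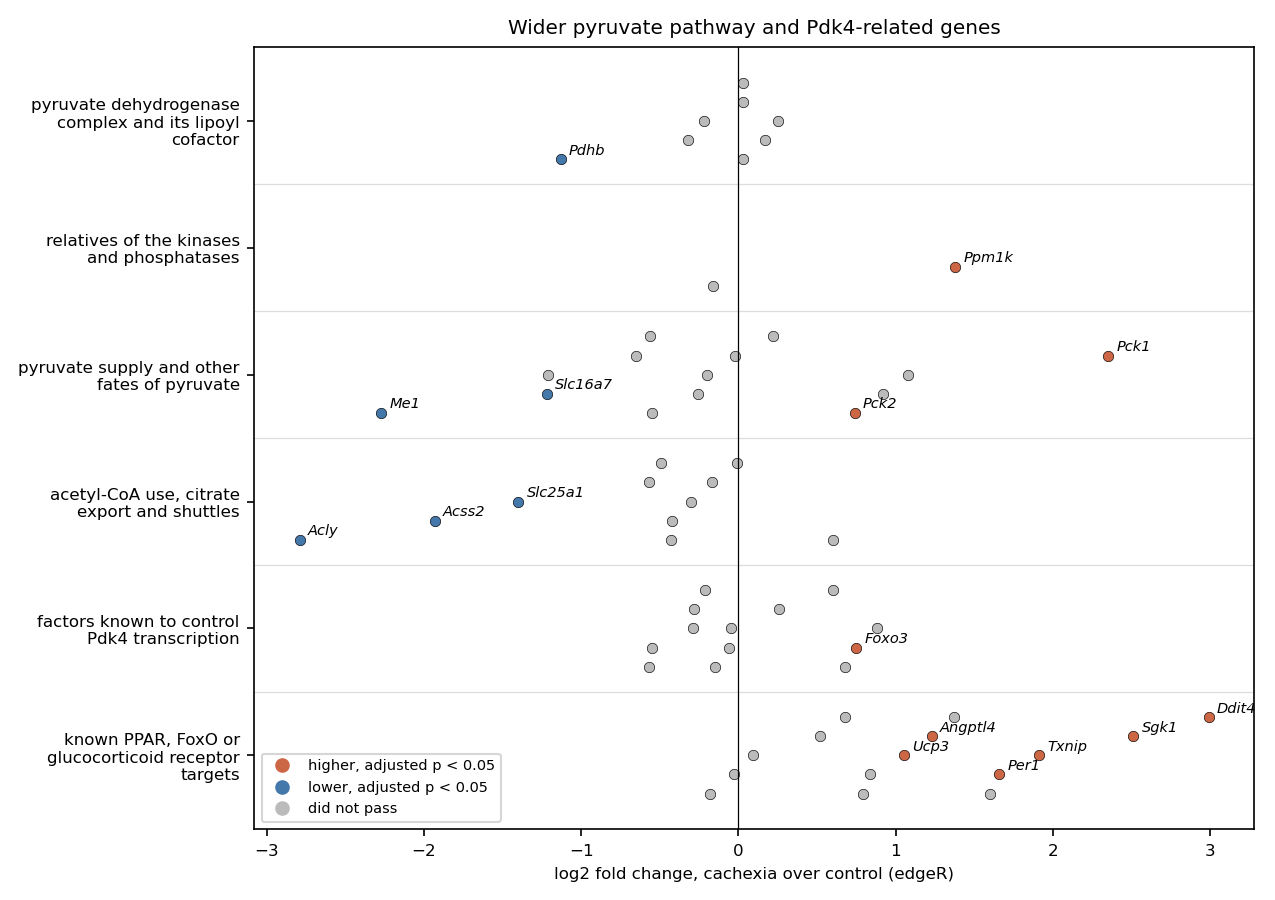
Log2 fold changes (edgeR, cachexia over control) of 63 of the 65 tested genes of the wider lists, 1 point a gene, with the vertical offset within a list only for legibility. Named points passed the adjusted threshold: 6 of the 15 known targets drawn rose, while all 3 that passed in the acetyl-CoA list fell.

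The genes whose levels over the 6 mice were most like those of Pdk4 were found by the root mean square difference of centred log2 CPM among 9769 protein-coding genes with a mean of at least 10 CPM. They were Depp1 (0.42), Fbxo31 (0.51), Gprin3 (0.53), Rassf6 (0.55) and Tmem252 (0.56). Depp1, known as a FoxO target, measured 37.9, 56.6 and 46.6 CPM in control mice and 273, 484 and 457 CPM in cachectic mice. Like Pdk4, it was lowest in cachexia 1 and highest in cachexia 2 among the cachectic mice. Fbxo31, an F-box protein of a ubiquitin ligase, shared that order, with 181, 472 and 282 CPM. In Gprin3 and Tmem252 cachexia 3 was the highest, and Rassf6 was nearly level over the cachectic mice, at 18.8, 23.5 and 21 CPM. The measure compares 6 samples that share the group difference and is a description.

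Markers of other cells moved between the groups, and their part in these results was not tested. The counts of called markers stand against 9% higher and 8.63% lower over all genes tested. Summed adipocyte markers were 41700 to 59500 CPM in control mice and 31700 to 57200 CPM in cachectic mice, where 2 of 10 rose and 1 fell. These defining markers of the labelled tissue were present in every mouse but did not move alike: Cidec and Pnpla2 rose and the leptin gene Lep fell, from 1020 ± 212 to 116 ± 111 CPM (SD, n = 3). Of those that did not pass, Adipoq was at 1610 to 2070 CPM in control mice and 1660 to 4180 CPM in cachectic mice, while Plin1 was at 1490 to 2400 and 385 to 1280 CPM, Retn at 1510 to 1960 and 730 to 1350 CPM, and Car3 at 15700 to 26300 and 3320 to 13800 CPM, each with the cachectic mice below. Summed neutrophil markers were 32.3 to 49.6 and 250 to 793 CPM, with 8 of 9 tested higher, and summed erythroid markers 252 to 451 and 1330 to 2850 CPM, with 5 of 5 higher. Summed progenitor and fibroblast markers were 5340 to 6100 and 2170 to 3170 CPM, with 5 of 7 lower. Endothelial markers were 1300 to 1340 and 1710 to 2790 CPM, with 2 of 7 higher. Summed macrophage markers (1460 to 1820 and 1120 to 1730 CPM, 1 of 8 lower), mesothelial markers (248 to 322 and 135 to 319 CPM, none of 5 called) and T and B cell markers (6.82 to 12.4 and 4.13 to 6.39 CPM, none of 5 called) were also measured. Skeletal muscle markers summed to 25.6 to 41 CPM in control mice and 7.58 to 57.7 CPM in cachectic mice, and most of that was Acta1, at 22.2 to 39.1 CPM in control mice and 6.42, 5.83 and 57.2 CPM in cachectic mice. Neither of the 2 tested was called, with Myh4 at 0 in every sample and Myh1 at most 1.13 CPM. Brown or beige adipocyte markers summed to 12.5 to 20.6 and 7.34 to 51 CPM, with 1 of 4 lower, and Ucp1 was at most 0.0614 CPM. The sums in cachexia 1, 2 and 3 were 14.3, 51 and 7.34 CPM, and Pdk4 was at 197, 810 and 585 CPM. Cachexia 2 was thus the highest for both, but cachexia 3, with more Pdk4 than cachexia 1, had the lowest sum. In cachexia 2, Cox8b was at 34.7 CPM and Cidea at 6.69 CPM, against at most 4.3 and 2.29 CPM in control mice. In cachexia 1 and 3, Cidea was at 0.35 and 0 CPM. Dio2, the marker called lower, was at 0.953 to 2.04 CPM in control mice and at most 0.0656 CPM in cachectic mice. Its log2 fold change was -4.48 (edgeR adjusted p = 0.00374). Ppargc1a in cachexia 2 (8.78 CPM) lay within its control range of 7.07 to 13 CPM, and Elovl3 was at most 0.676 CPM. Cox8b had a log2 fold change of 2.12 and an edgeR adjusted p of 0.143. Epididymal epithelium markers summed to at most 3.71 CPM. The total counts ran from 14928766 to 18855546, and every cachectic library was smaller than every control library.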

How the data were processed

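Total RNA of eWAT from 3 cachectic and 3 control mice was sequenced, and samples were grouped by their titles. The authors filtered the reads, used Hisat2 for alignment and featureCounts (version 1.5.0-p3 in the submitters' processing notes) for counting per gene, and deposited raw counts, 1 column per mouse. The authors also deposited FPKM values, made from counts and gene length, which served only in alternatives. The authors' own DESeq2 comparison (version 1.16.1 in the same notes), with fold changes, p-values, 2 columns of group means and 6 columns of per-sample values, was not used. The notes name the build mm9, but 99.9% of the gene identifiers are in GENCODE M21 (GRCm38) and 98.3% of those, and all 10 genes, have the same start and end there, so coordinates are given as GRCm38.

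The quasi-likelihood test of edgeR 4.0.16 (R 4.3.3) was run on counts that passed filterByExpr, with TMM factors, no covariates and a Benjamini-Hochberg threshold of 0.05. The standard error is the log2 fold change divided by the square root of F. The biological coefficient of variation was 0.264, and depth was 14928766 to 18855546 counts per sample. Ratios were compared by two-sided exact permutation tests. With 3 mice per group, the edgeR p-values set a group difference against the estimated spread between these samples. The permutation p-values only place a difference among the possible relabellings of these mice. The scripts were tested on simulated data. No pair of libraries had near-identical counts. Alternatives were RLE factors, plain library totals, no filter, at least 10 counts in every sample, a replicate block, DESeq2 1.42.0, limma-voom and limma 3.58.1 on log2(FPKM + 1) or log2(FPKM + 0.1), and each mouse left out.

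The 10 genes and all lists were chosen with earlier results of these data known. All 10 genes are named, with up to 5 passing genes per direction of each wider list by smallest p, and the 5 protein-coding genes most like Pdk4. Other wider-list genes, Mpc1-ps and the overlapping genes were named after their values were seen. Some genes that this rule covers are counted in their lists but not reported here.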

Additional observations from a re-analysis of the deposited data

How the results depend on the processing

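The calls of Pdk2, Pdk4 and Mpc2 held under all 15 alternatives, with log2 fold changes of 2.05 to 2.27, 3.28 to 4.11 and -1.28 to -1.04. Those of Pdk3 and Mpc1 held under 14, and Pdk1, Pdp1, Pdp2, Pdha1 and Pcx passed under none. With each mouse left out in turn, 2 genes rose throughout, and 1 to 3 fell, with 1 without control 3. In the wider lists 6 to 11 genes rose and 1 to 6 fell when a mouse was left out. Without control 3, 6 rose and 1 fell, and without cachexia 1 or cachexia 2, 3 fell. DESeq2 called 17 wider genes higher. Over all genes, 828 were called without control 3, 1312 without control 2 and 2017 to 2339 with any other single mouse left out, against 2821 with all mice, while DESeq2 called 3884. The cause was not tested. The log2 fold change of Pcx ranged from -0.45 to 0.21 over mice left out, with the sign turned to 0.21 without cachexia 3 and 0.08 without control 2. The log2 difference in the Mpc1 to Mpc2 ratio ranged from -0.02 to 0.33, with -0.02 without control 1. Over mice left out, the Pdk4 share differed by 22.7 to 38.2 percentage points and the log2 ratio of kinases to phosphatases by 2.17 to 2.64. Without division by length, the log2 ratio of kinases to phosphatases differed by 2.15. Scaling moved the median log2 fold change of all genes by at most 0.05.

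The replicate numbers belong to different mice. Deviations of same-numbered mice correlated at -0.01, -0.01 and 0.01, and those of differently numbered mice at -0.02 to 0.02. Only 1 of the 3 numbers matched best with itself, in a tie at this rounding. The check showed no pairing by number, and a shared batch was not tested. With the replicate block, 2 of the 10 genes rose and 3 fell, 12 wider genes rose and 4 fell, and 1881 of all genes were called. For the ratios, exact sign flips over the replicate block gave p = 0.25 for the Pdk4 share and the kinase to phosphatase ratio, the smallest 3 pairs can give, and 0.5 for Mpc1 to Mpc2.

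Chosen after seeing the data, the length of the longest coding transcript gave a Pdk4 share of 17.8% in control and 44.7% in cachectic mice, below the Pdk2 share of 48.1%, and summing Mpc1 with Mpc1-ps gave a log2 fold change of -1.29. Groups of 3 cannot reach a permutation p below 0.1.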
